A study of Rattus norvegicus with 6 samples.

Results

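Amino acid and neurotransmitter transporters of the solute carrier (SLC) superfamily were followed in the rat inferior alveolar nerve (IAN), the mandibular sensory branch of the trigeminal nerve, after transection. Members were all genes whose symbol places them in SLC family 1, 3, 6, 7, 36, 38 or 43, which gave 61 of the 34106 genes in the table. The groups were 3 samples from IAN-transected (IANX) rats and 3 from sham-operated rats, all male Sprague–Dawley animals whose nerve was collected on day 14 after surgery. In IANX rats the mandibular bone was opened, the IAN and the mental nerve were cut, and a gap was left between the unsutured stumps, whereas in Sham rats the cheek skin and the masseter muscle were incised without cutting the nerve. Opening of the bone was described for the IANX operation only, so the bone opening and the nerve cut cannot be told apart here. The labels enter the treatment of the IANX samples as transfection and that of the Sham samples as none, and the surgery is taken from the study's methods.

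Cells import amino acids, creatine, taurine and amino acid transmitters through carriers that couple transport to sodium, protons or the exchange of a second amino acid. Families 1 and 6 hold the carriers that clear glutamate, GABA, glycine and monoamines in the nervous system, and family 6 also carries creatine and taurine. Families 7 and 3 form pairs in which a light subunit transports and a heavy subunit brings it to the cell surface, while families 36, 38 and 43 carry mainly small neutral amino acids, glutamine and branched-chain amino acids. In peripheral nerve these carriers serve Schwann cells, perineurial and endothelial cells, fibroblasts and immune cells as well as the axons, whose cell bodies lie in the trigeminal ganglion.

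The sequence just upstream of the start site is shown for Slc36a2 and Slc6a8, which fell steeply, and for the heavy and light subunits that passed the test, because 2 sequence motifs of amino acid and oxidative stress control were looked for there. The motifs were TGATGNAA, the composite element bound by ATF4 with C/EBP factors, and TGACNNNGC, the antioxidant response element, each searched on both strands from 250 bases before to 50 bases after the start. Capitals mark a match to TGACNNNGC, and no match to TGATGNAA lies in the printed windows. Sequences are from RefSeq (build GRCr8), run 5′ to 3′ on the strand of the gene and end 1 base before the annotated start.
Slc36a2, chr10:39806774-39807023, minus strand: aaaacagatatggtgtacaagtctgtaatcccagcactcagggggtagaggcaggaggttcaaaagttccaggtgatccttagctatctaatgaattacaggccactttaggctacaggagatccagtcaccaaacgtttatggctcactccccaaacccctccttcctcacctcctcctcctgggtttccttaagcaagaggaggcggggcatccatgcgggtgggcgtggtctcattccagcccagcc
Slc6a8, chrX:156535767-156536016, plus strand: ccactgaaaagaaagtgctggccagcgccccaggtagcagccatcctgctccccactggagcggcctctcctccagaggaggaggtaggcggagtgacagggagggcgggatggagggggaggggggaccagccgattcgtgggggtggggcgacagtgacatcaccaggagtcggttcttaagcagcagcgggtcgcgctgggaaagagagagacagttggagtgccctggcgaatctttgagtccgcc
Slc3a2, first start, chr1:215048065-215048314, minus strand: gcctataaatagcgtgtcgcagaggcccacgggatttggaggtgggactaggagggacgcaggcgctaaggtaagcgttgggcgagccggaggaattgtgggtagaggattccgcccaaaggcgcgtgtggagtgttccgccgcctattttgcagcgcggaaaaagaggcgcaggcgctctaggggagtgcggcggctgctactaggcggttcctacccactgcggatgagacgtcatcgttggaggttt
Slc3a2, second start, chr1:215039671-215039920, minus strand: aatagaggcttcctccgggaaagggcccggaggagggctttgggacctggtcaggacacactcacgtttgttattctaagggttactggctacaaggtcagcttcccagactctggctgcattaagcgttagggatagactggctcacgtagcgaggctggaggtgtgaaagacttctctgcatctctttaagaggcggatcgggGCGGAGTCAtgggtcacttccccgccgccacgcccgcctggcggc
Slc7a7, chr15:31835684-31835933, minus strand: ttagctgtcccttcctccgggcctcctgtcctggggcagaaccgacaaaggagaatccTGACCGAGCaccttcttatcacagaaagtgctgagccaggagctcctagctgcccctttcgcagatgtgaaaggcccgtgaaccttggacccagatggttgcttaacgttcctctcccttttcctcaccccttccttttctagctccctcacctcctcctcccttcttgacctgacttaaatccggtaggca
Slc7a11, chr2:136668265-136668514, minus strand: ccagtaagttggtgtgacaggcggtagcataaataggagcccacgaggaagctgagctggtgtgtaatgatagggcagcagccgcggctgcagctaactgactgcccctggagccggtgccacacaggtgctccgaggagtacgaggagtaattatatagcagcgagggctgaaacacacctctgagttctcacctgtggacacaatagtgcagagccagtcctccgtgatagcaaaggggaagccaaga

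Promoter entries were found by symbol for 45 of the 61 members, with 49 windows in all, and for 6 of the 10 members that passed the test. Slc38a3, Slc38a11, Slc6a13 and Slc7a2 had no entry and were not searched. TGACNNNGC was present in 9 of the 49 windows (18.4%), 1 for each of 9 members, and in 12.1% of all 33469 rat promoter windows in the table. Among the 6 searched members that passed the test it lay 45 bases upstream of the second Slc3a2 start and 192 bases upstream of the Slc7a7 start. TGATGNAA was present in 3 of 49 windows (6.12%) and in 3.98% of all windows, namely in Slc38a1 at 142 bases, in Slc1a4 at 235 bases and in Slc7a1 at 30 bases upstream. A match is only a run of letters and was not linked to binding of a factor.

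Total counts were 14630127 to 17105402 per Sham sample and 13988750 to 16440720 per IANX sample. IANX 2 stood apart, with a correlation across genes of 0.902 and 0.914 to IANX 1 and IANX 3 against 0.959 between those 2 samples. The 12 markers of myelinating Schwann cells summed to 173928 to 228312 CPM (read counts scaled to the normalized library size) in Sham and to 4101 to 15212 CPM in IANX samples, so the labelled nerve tissue was recognised in Sham by its defining transcripts. The 12 tooth markers summed to 130 to 879 CPM in Sham, to 56672 and 61235 CPM in IANX 1 and IANX 3 and to 1984 CPM in IANX 2. The 9 epithelial markers summed to 390.4 to 473 CPM in Sham, 1581 and 3542 CPM in IANX 1 and IANX 3 and 37.97 CPM in IANX 2. The 20 macrophage markers summed to 636 to 792 CPM in Sham and 1033 to 2525 CPM in IANX, with IANX 2 the highest. The 11 bone markers (1 at 0 in all samples) summed to 500 to 1488 CPM in Sham and 1606 to 2987 CPM in IANX, and the 7 T cell markers to 21.8 to 36.5 and 44.4 to 103 CPM, so that every IANX sum lay above every Sham sum. Of the tested markers, 11 of 12 for myelin fell, and 8 of 9 for tooth, 6 of 7 for epithelium, 6 of 9 for bone, 11 of 20 for macrophages and 3 of 6 for T cells rose, and outside the bone list none of these markers was at 0 in all samples.

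Of the 61 members, 43 passed the filter on low counts and were tested in 1 fit with all 15374 tested genes (edgeR quasi-likelihood test, Benjamini-Hochberg adjusted p under 0.05). Transcripts of 4 members rose in IANX nerves (Slc7a7, Slc7a11, Slc38a3 and Slc38a11) and those of 6 fell (Slc36a2, Slc6a8, Slc6a13, Slc38a1, Slc7a2 and Slc3a2). Hence 9.3% of tested members were higher and 14.0% lower, beside 17.8% and 16.6% of all tested genes, so both shares lay below those of all genes, a difference that was not tested. The median log2 fold change was 0.12 for the members and 0.08 for all tested genes. More than 2-fold changes were called for 3 members upward and 5 downward, beside 13.1% and 10.8% of all genes. The 3 IANX and 3 Sham samples did not overlap in 17 of the 43 members, 4 with IANX above and 13 with IANX below, against 27% above, 24.5% below and 51.5% in either direction among all tested genes. Without IANX 2 the counts were 6 higher and 10 lower, without Sham 1, 2 or 3 they were 0 higher in each case with 4, 5 and 4 lower, without IANX 1 they were 1 and 5, and without IANX 3 they were 1 and 6. All 10 calls were kept without IANX 2. In the same fits 9.61%, 6.36% and 5.95% of all genes were called higher and 11.7%, 9.71% and 9.26% lower without Sham 1, 2 or 3. The shares higher and lower were 12.6% and 12.3% without IANX 1, 23.1% and 21.8% without IANX 2, and 10.9% and 11.3% without IANX 3. At an unadjusted p under 0.05, 7 members were higher and 11 lower with all samples, and 2, 4 and 5 were higher without Sham 1, 2 or 3 (edgeR). Counts at this unadjusted threshold, here and below, stand without the share of all genes, which was not computed.

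**Figure D1:**
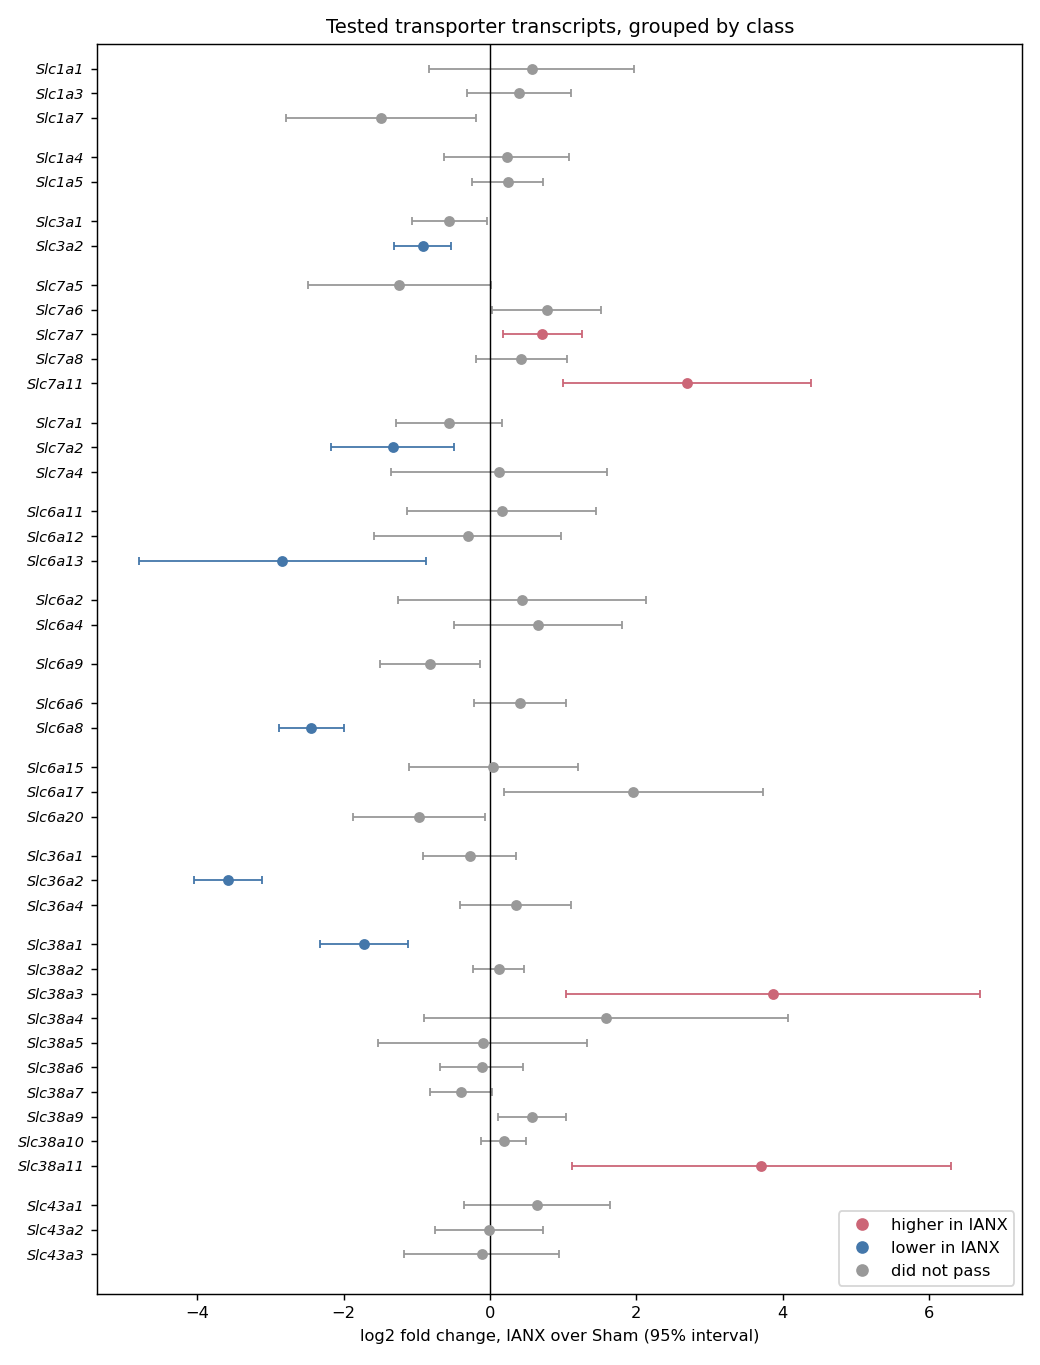
Log2 fold change of IANX over Sham (x axis, points with 95% intervals from the edgeR fit, 3 samples per group) for 42 of the 43 tested members, grouped by transporter class. Intervals are narrow for the abundant Slc36a2, Slc6a8 and Slc3a2, which lie left of 0, and wide for Slc7a11, Slc38a3 and Slc38a11 among the 4 members in red that rose, of which Slc38a3 spans 1.05 to 6.70.

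In counts, not corrected for gene length, the net drop of transporter transcript lay mostly in few genes. All members together summed to 1777 ± 63.3 CPM in Sham and 986 ± 117 CPM in IANX (SD, n = 3 in each). Slc6a8, Slc36a2 and Slc3a2 alone made up 53.9% ± 1.43 of that sum in Sham and 24.5% ± 2.41 in IANX. Their joint fall of 716 CPM was 90.5% of the 791 CPM by which the mean sum dropped. That drop is net, since rises of some other members offset falls of others, so 90.5% is not their share of all falls. Without these 3 genes, which were picked for their levels after seeing them, the remaining members summed to 819 ± 23.3 CPM in Sham and 745 ± 97.2 CPM in IANX, with sums of 739, 651 and 845 CPM in IANX 1, 2 and 3 against 793, 827 and 838 CPM in Sham, so that the groups overlapped.

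The proton-coupled carrier Slc36a2 (PAT2), which moves glycine, alanine and proline, showed the steepest drop of the tested transporters with all samples, though not without IANX 2 (log2 fold change -3.80, against -4.69 for Slc6a13). Its gene lies on chr10:40496622-40525008 (rn6, minus strand). Slc36a2 was counted at 214, 238 and 209 CPM in Sham 1, 2 and 3 and at 16.5, 22.8 and 15.9 CPM in IANX 1, 2 and 3. Every IANX sample was far below every Sham sample, and each group varied little. The mean was 11.97-fold lower in IANX (log2 fold change -3.58, SE 0.197, edgeR adjusted p = 0.000223), and the call held in all 16 other analyses, including IANX 2 alone against Sham (-3.27). The myelin marker sum moved in the same direction, and in bulk tissue fewer cells of a type and less RNA per cell cannot be told apart. The sums of the Schwann cell identity markers (7198 to 7483 CPM in Sham, 563 to 2471 CPM in IANX) and the perineurial markers (1904 to 2249, then 393 to 712 CPM) were also lower. The part of Schwann cell or perineurial content was not tested in this result or for the other genes that fell. The other proton-coupled carriers did not pass: Slc36a1, a lysosomal and surface carrier, had a log2 fold change of -0.28 and Slc36a4 one of 0.35, while Slc36a3 stayed below the filter with 3 to 17 counts per sample.

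Slc6a8, the sodium- and chloride-coupled creatine transporter, shared first place with Slc3a2 in transcript per gene length in Sham. The gene lies on chrX:157129987-157139291 (rn6, minus strand). It was counted at 474, 512 and 470.1 CPM in the Sham samples and at 72.3, 97.1 and 99.2 CPM in the IANX samples. The groups were widely separated, with a 5.42-fold lower mean in IANX (log2 fold change -2.44, SE 0.188, edgeR adjusted p = 0.000463), and this call too held in all 16 other analyses. The myelin, Schwann cell identity and perineurial marker sums moved in the same direction, as for Slc36a2, and their part in the result was not tested. The taurine transporter Slc6a6, its neighbour in the class, did not pass, with 21.3, 11.7 and 20.0 CPM in Sham against 22.0, 19.9 and 28.6 CPM in IANX (log2 fold change 0.41, 95% interval -0.22 to 1.04).

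**Figure D2:**
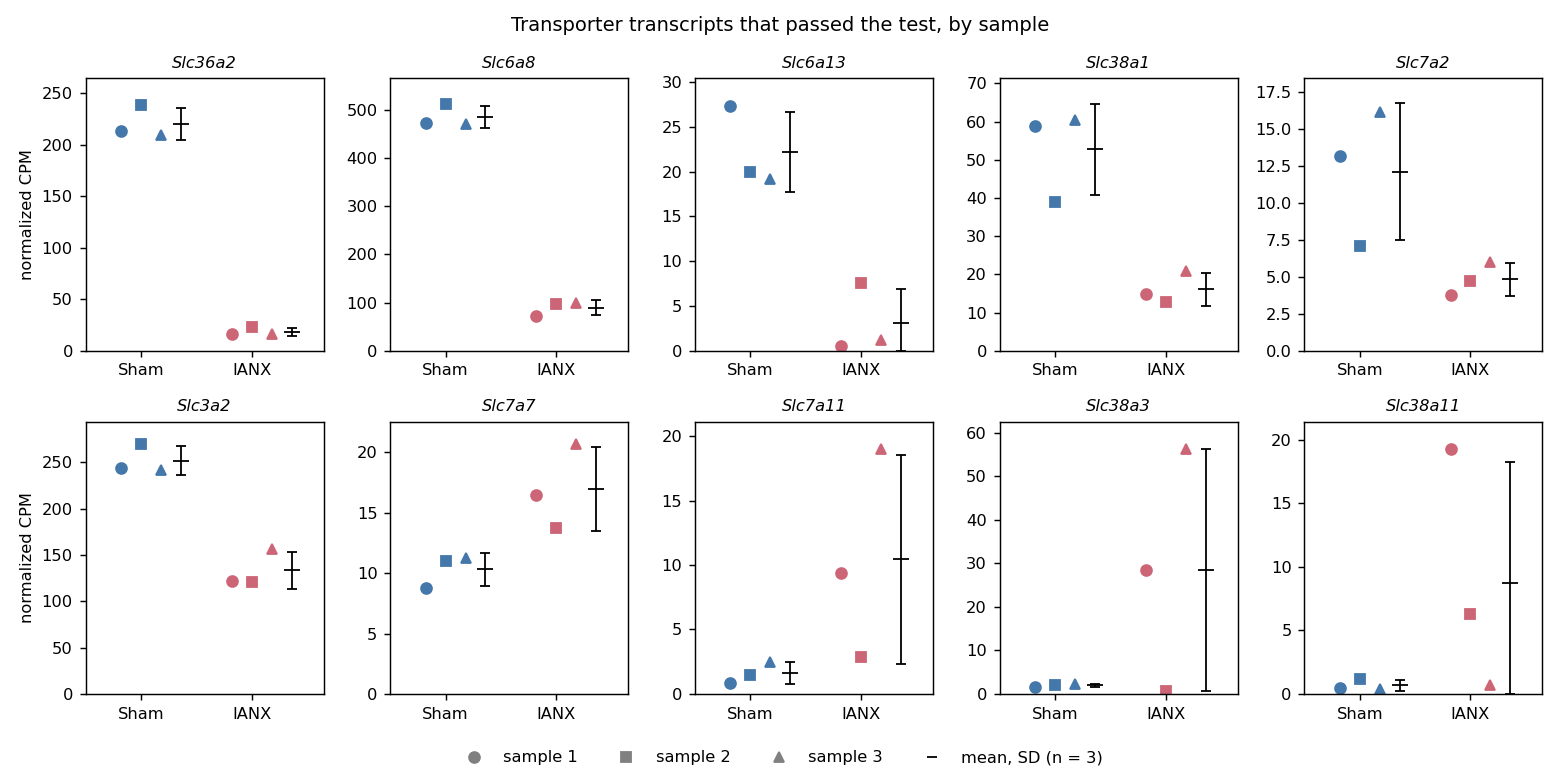
Normalized CPM (y axis, starting at 0) in each Sham and IANX sample for the 10 members that passed the test, with the mean and SD of 3 samples beside the points (bars that would pass below 0 end at 0). The 6 members that fell and Slc7a7 and Slc7a11 show no overlap between groups, whereas in Slc38a3 and Slc38a11 an IANX sample lies among or below the Sham samples.

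The heavy subunit Slc3a2 (CD98 heavy chain), which carries its light partners to the plasma membrane, fell in all 3 IANX nerves. The gene lies on chr1:224906554-224921092 (rn6, minus strand), and both of its start sites are printed above. Its levels were 243, 269.5 and 242 CPM in Sham and 122, 121 and 156 CPM in IANX, with no overlap. The mean was 1.89-fold lower (log2 fold change -0.92, SE 0.166, edgeR adjusted p = 0.00688), which no omission of a sample changed (adjusted p 0.00352 to 0.0341) and which was lost only with library sizes in place of TMM scaling (adjusted p = 0.0592). The other heavy subunit, Slc3a1, which pairs with Slc7a9 in kidney and gut, was low, at 8.63, 8.74 and 9.45 CPM in Sham and 6.45, 5.67 and 6.16 CPM in IANX. Its groups did not overlap, yet the difference did not pass (log2 fold change -0.55, adjusted p = 0.0896), and Slc7a9 itself was below the filter with 2 to 13 counts per sample.

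In the edgeR fit, 2 of the 5 tested light subunits rose (40%) and none fell (0%), beside 17.8% and 16.6% of all tested genes. Slc7a7 (y+LAT1), an exporter of cationic amino acids used by macrophages, kidney and gut, was counted at 8.77, 10.99 and 11.2 CPM in Sham and 16.5, 13.8 and 20.7 CPM in IANX. The groups did not overlap and the log2 fold change was 0.72 (SE 0.231, edgeR adjusted p = 0.0473), but the call was close to the threshold and was lost in 11 of 16 other analyses. The adjusted p was 0.136, 0.108 and 0.115 without Sham 1, 2 or 3, 0.0896 without IANX 1 and 0.160 without IANX 3, and it was 0.0206 without IANX 2. The macrophage marker sum was also higher in all IANX samples, at 1033, 2525 and 1164 CPM, and was highest in IANX 2, where Slc7a7 was lowest of the 3, and the part of macrophage content in the result was not tested.

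Slc7a11 (xCT), which exchanges glutamate for cystine and thereby feeds glutathione synthesis, was scarce in Sham. It was counted at 0.828, 1.499 and 2.51 CPM in Sham and at 9.40, 2.89 and 19.0 CPM in IANX. IANX 2 lay just above the highest Sham sample and the other IANX samples well above it. The log2 fold change was 2.69 (SE 0.724, edgeR adjusted p = 0.0265), and the adjusted p was 0.0919, 0.108 and 0.0592 without Sham 1, 2 or 3, 0.0807 without IANX 3 (log2 fold change 1.91) and 0.00252 without IANX 2. IANX 2 alone gave a log2 difference of 0.84 from Sham (adjusted p = 0.396), and the tooth and epithelial marker sums were high in the same samples as Slc7a11, a part in the result that was not tested.

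Slc7a5 (LAT1), the main importer of leucine and other large neutral amino acids, was the most abundant light subunit. It did not pass in edgeR, whereas DESeq2 with all samples called it lower. It was counted at 133, 176 and 146 CPM in Sham and at 63.7, 18.9 and 109 CPM in IANX. All IANX samples were below all Sham samples, but they were spread widely, with IANX 2 the lowest (log2 fold change -1.24, SE 0.535, edgeR adjusted p = 0.110). The adjusted p was 0.0279 without IANX 2 and 0.0384 without IANX 3, and IANX 2 alone gave a log2 difference of -2.99 (adjusted p = 0.000283). Slc7a6 (y+LAT2) and Slc7a8 (LAT2) also did not pass, with log2 fold changes of 0.78 and 0.43.

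Per gene length, in the deposited FPKM (fragments relative to gene length and a normalized library size), Slc3a2 dropped from 124 ± 8.49 to 63.6 ± 8.92 (SD, n = 3). Its light partners Slc7a5, Slc7a6, Slc7a7, Slc7a8, Slc7a10 and Slc7a11 summed to 59.1 ± 8.01 in Sham and 42.2 ± 18.2 in IANX (SD, n = 3). The ratio of heavy subunit to light subunits was 2.32, 1.98 and 2.02 in Sham and 1.34, 2.51 and 1.23 in IANX, so the groups overlapped. The make-up of the light subunits differed more: Slc7a5 held 75.2%, 76.7% and 72.3% of their FPKM in Sham and 41.4%, 23.3% and 51.3% in IANX. The mean share of Slc7a6 was 10.7% in Sham and 25.3% in IANX, that of Slc7a7 was 9.94% and 24.2%, and that of Slc7a11 was 0.307% and 2.41%. These shares rest on the same counts as the tests above and received no test of their own. As parts of the same sum, the other shares rise when Slc7a5 falls, even where a gene keeps its level. In IANX 2, Slc7a6 held 25.6% at 6.03 FPKM, within its Sham range of 5.09 to 7.08 FPKM. It reached 11.8 and 13.7 FPKM in IANX 1 and IANX 3.

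In the cationic amino acid branch of family 7, Slc7a2 (CAT2), an importer of arginine and lysine, fell. It was counted at 13.1, 7.08 and 16.1 CPM in Sham and 3.79, 4.68 and 5.99 CPM in IANX. The groups were apart, although Sham 2 came close to IANX 3, and the log2 fold change was -1.33 (SE 0.360, edgeR adjusted p = 0.0271). The adjusted p was 0.0814 without Sham 1, 0.108 without Sham 3 and 0.0713 without IANX 1. The call was also lost with library sizes only (log2 fold change -0.89, adjusted p = 0.0918), with IANX 2 alone (0.0836) and with limma without a filter (0.0734), so that 6 of 16 other analyses did not call it. Slc7a1 (CAT1), the widely used arginine carrier, was counted at 17.1, 20.7 and 15.8 CPM in Sham and 12.2, 7.46 and 16.7 CPM in IANX, with overlapping groups (log2 fold change -0.56, adjusted p = 0.194). Slc7a4 stood at 0.12 and did not pass, and Slc7a3 and Slc7a14 were below the filter, with 3 to 19 and 0 to 4 counts per sample.

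Among the GABA carriers of family 6, Slc6a13 (GAT2), which takes up GABA and taurine and is known from meninges, liver and kidney, fell. Slc6a13 was counted at 27.3, 20.0 and 19.2 CPM in Sham and 0.566, 7.52 and 1.19 CPM in IANX. All IANX samples were lower, with IANX 2 nearest to Sham, and the gene fell by 2.83 on the log2 scale (SE 0.837, edgeR adjusted p = 0.0361). The adjusted p was 0.104, 0.103 and 0.0889 without Sham 1, 2 or 3 and 0.0942 without IANX 3, whereas omission of IANX 2 gave -4.69 on the log2 scale (adjusted p = 0.000139).

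The Schwann cell and perineurial marker sums were lower in IANX, as was Slc6a13. The 5 Schwann cell identity markers summed to 7198 to 7483 CPM in Sham and to 563, 2471 and 948 CPM in IANX 1, 2 and 3. The 6 perineurial markers summed to 1904 to 2249 CPM in Sham and 393, 712 and 668 CPM in IANX. None was at 0 throughout, and 3 of 5 and 3 of 6 were called lower, with none higher. The perineurial sum of IANX 3 was near that of IANX 2, while Slc6a13 stood at 1.19 against 7.52 CPM. The part of these markers in the result was not tested. Slc6a11 (GAT3) and the betaine carrier Slc6a12 did not pass, with log2 fold changes of 0.16 and -0.31.

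The glycine carrier Slc6a9 (GlyT1) was counted at 6.70, 8.50 and 10.3 CPM in Sham and 3.68, 5.12 and 5.63 CPM in IANX. The groups did not overlap and the difference did not pass (log2 fold change -0.82, SE 0.293, edgeR adjusted p = 0.0657). DESeq2 with all samples called Slc6a9 lower (adjusted p = 0.0374). The neuronal glycine carrier Slc6a5 and the proline carrier Slc6a7 were below the filter, with 0 to 1 and 0 to 10 counts per sample. Of the monoamine carriers, the noradrenaline transporter Slc6a2 was counted at 3.11, 1.75 and 2.81 CPM in Sham and 4.98, 4.90 and 0.533 CPM in IANX (log2 fold change 0.44, adjusted p = 0.664), and the serotonin transporter Slc6a4 had a log2 fold change of 0.66 (adjusted p = 0.323). The dopamine transporter Slc6a3 had 0 counts in each Sham sample and 32, 2 and 6 counts in IANX, which is at least 10.1-fold higher when the Sham total is set to the limit of 3 counts that 0 allows. This rests on IANX 1, without which 8 counts remain and the limit is 3.03-fold. Slc6a3 did not pass the filter on low counts, and without that filter it was called higher by edgeR (adjusted p = 0.0454) and DESeq2 (0.0116) but not by limma on FPKM values (0.268).

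In the amino acid and orphan branch of family 6, the vesicular carrier of neurons Slc6a17 (NTT4) was counted at 2.76, 3.25 and 2.36 CPM in Sham and 18.3, 1.58 and 12.8 CPM in IANX. IANX 2 was below every Sham sample and the other IANX samples were above, as for Slc38a3, and the difference did not pass (log2 fold change 1.96, edgeR adjusted p = 0.0805). Without IANX 2 the log2 fold change was 2.44 (edgeR adjusted p = 0.000556), and DESeq2 with all samples called the gene higher. Slc6a17 was high in IANX 1 and IANX 3, in which the tooth and epithelial marker sums were high, and their part in the result was not tested. Slc6a15 and the proline carrier Slc6a20 had log2 fold changes of 0.05 and -0.97, and Slc6a14, Slc6a16, Slc6a18 and Slc6a19 were below the filter.

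**Figure D3:**
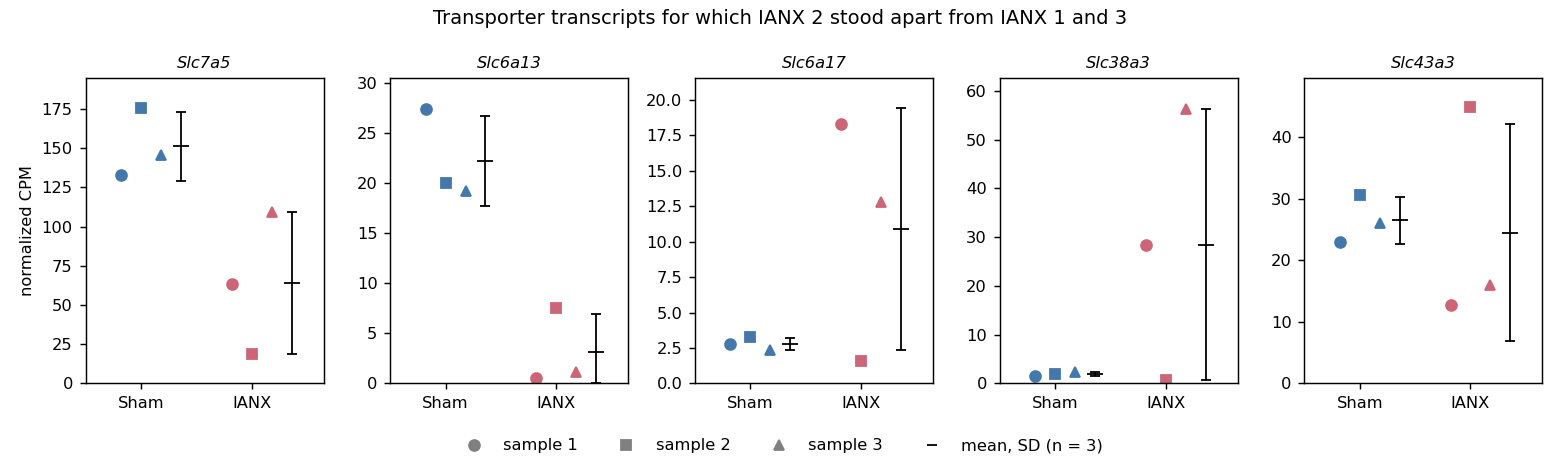
Normalized CPM (y axis, starting at 0) by sample for 5 members in which IANX 2 (square) lay away from IANX 1 and IANX 3, chosen after their values were seen, with the mean and SD of 3 samples (bars that would pass below 0 end at 0). IANX 2 lies between Sham and the other IANX samples for Slc6a13, below all samples for Slc7a5, Slc6a17 and Slc38a3, and above all samples for Slc43a3.

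Family 38 carries glutamine and other small neutral amino acids with sodium, and in nervous tissue passes glutamine between glia and neurons. Of its 10 tested members, 2 were called higher (20%) and 1 lower (10%), beside 17.8% and 16.6% of all tested genes. Slc38a1 (SNAT1), a glutamine importer, was counted at 58.8, 39.1 and 60.4 CPM in Sham and at 14.8, 12.6 and 20.8 CPM in IANX. The groups were well apart, with a 3.28-fold lower mean in IANX (log2 fold change -1.71, SE 0.257, edgeR adjusted p = 0.00348), and the call held in all 16 other analyses. Its gene lies on chr7:137975549-138039984 (rn6, minus strand). Slc38a2 (SNAT2), the widespread member induced when amino acids are scarce, was counted at 152, 164 and 152 CPM in Sham and 181, 148 and 179 CPM in IANX, with overlapping groups (log2 fold change 0.12, 95% interval -0.23 to 0.47, adjusted p = 0.560).

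Slc38a3 (SNAT3), a glutamine carrier of liver, kidney and astrocytes, and the little-studied Slc38a11 rose on average but not in every IANX sample. Slc38a3 was counted at 1.52, 1.999 and 2.29 CPM in Sham and at 28.4, 0.708 and 56.2 CPM in IANX. IANX 1 and IANX 3 were far above Sham and IANX 2 was below it, in a fit that gave a log2 fold change of 3.87 (SE 1.21, edgeR adjusted p = 0.0433). The adjusted p was 0.134, 0.148 and 0.124 without Sham 1, 2 or 3, 0.0655 without IANX 1, 0.118 without IANX 3 (log2 fold change 2.89) and 0.000129 without IANX 2, and IANX 2 alone gave a log2 difference of -1.43 (adjusted p = 0.179). Slc38a3 was high in the samples in which the tooth markers (56672 and 61235 CPM) and the epithelial markers (1581 and 3542 CPM) were high, and low in IANX 2, and their part in the result was not tested.

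Slc38a11 was counted at 0.483, 1.17 and 0.369 CPM in Sham and 19.2, 6.32 and 0.711 CPM in IANX. Here IANX 3 was the sample within the Sham range, unlike for Slc38a3 (log2 fold change 3.71, SE 1.11, edgeR adjusted p = 0.0374). The bone marker sum was also highest in IANX 1 and lowest of the IANX samples in IANX 3 (2987, 2443 and 1606 CPM in IANX 1, 2 and 3 against 500 to 1488 CPM in Sham), and its part in the result was not tested. The adjusted p was 0.123, 0.0962 and 0.128 without Sham 1, 2 or 3 (log2 fold change 4.32 without Sham 2) and 0.0995 without IANX 1 (2.40). The lysosomal arginine sensor Slc38a9 was counted at 8.49, 9.49 and 8.20 CPM in Sham and 12.8, 13.6 and 12.5 CPM in IANX, with IANX above Sham throughout and a difference that missed the threshold (log2 fold change 0.57, adjusted p = 0.0586).

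Slc38a10, an abundant member, was counted at 93.6, 94.9 and 88.0 CPM in Sham and 106, 112 and 97.4 CPM in IANX, again with no overlap but a small difference (log2 fold change 0.19, edgeR adjusted p = 0.293). The lysosomal glutamine and asparagine carrier Slc38a7 was counted at 27.3, 33.3 and 30.6 CPM in Sham and 18.7, 24.6 and 25.9 CPM in IANX, with IANX below Sham (log2 fold change -0.40, adjusted p = 0.129). Slc38a4, Slc38a5 and Slc38a6 did not pass, with log2 fold changes of 1.58, -0.10 and -0.11, and Slc38a8 was below the filter.

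The 5 tested members of family 1 did not pass (edgeR), and 1 of them, Slc1a7, had an unadjusted p under 0.05. The glial glutamate transporter Slc1a3 (GLAST) was counted at 9.04, 11.3 and 11.96 CPM in Sham and 8.66, 16.8 and 17.1 CPM in IANX, with overlapping groups (log2 fold change 0.40, edgeR adjusted p = 0.339). Slc1a5 (ASCT2), a glutamine exchanger of dividing cells, was counted at 22.0, 18.2 and 17.1 CPM in Sham and 19.6, 27.8 and 20.4 CPM in IANX, and these also overlapped (log2 fold change 0.24, adjusted p = 0.388). Slc1a1 and Slc1a4 had log2 fold changes of 0.57 and 0.23. Slc1a7 (log2 fold change -1.49) had the lowest adjusted p, 0.0731, of the 19 tested members not selected for sample values, a set that includes Slc6a6. The astrocyte glutamate transporter Slc1a2, which dominates glutamate uptake in brain, had 0 to 3 counts per sample, and the cerebellar Slc1a6 had 0 to 18.

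The 3 tested members of family 43 did not pass either (edgeR), also at an unadjusted p under 0.05. Slc43a3, a nucleobase carrier, was counted at 22.9, 30.6 and 26.1 CPM in Sham and 12.7, 44.8 and 15.9 CPM in IANX. IANX 2 was above every Sham sample and the other IANX samples were below (log2 fold change -0.11, edgeR adjusted p = 0.867), while omission of IANX 2 gave -0.92 on the log2 scale (adjusted p = 0.00948). The branched-chain amino acid carriers Slc43a1 and Slc43a2 had log2 fold changes of 0.65 and -0.01.

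The 18 members below the filter had at most 32 counts in a sample, and 3 of them, Slc7a12, Slc7a13 and Slc6a18, had 0 counts in every sample. A further 6 reached 10 or more counts in some sample, namely Slc1a6, Slc7a9, Slc7a3, Slc6a3, Slc6a7 and Slc36a3. The rest were Slc1a2, Slc7a10, Slc7a14, Slc7a15, Slc6a5, Slc6a14, Slc6a16, Slc6a19 and Slc38a8. In the edgeR fit without the filter, 15 of the 18 were tested and Slc6a3 alone was called, while the other 14 had adjusted p values of 0.255 or more. Their absence from the nerve is not shown at this depth.

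Compared per gene length, the order of levels changed between the groups. In Sham, Slc6a8 (125 FPKM) and Slc3a2 (124 FPKM) came first and overlapped, followed by Slc36a2 (76.0), Slc7a5 (44.2) and Slc38a2 (34.0), each apart from the next in FPKM, and then by Slc38a10 (24.8) and Slc38a1 (23.3), which overlapped. In IANX, Slc3a2 (63.6 FPKM) was followed by Slc38a2 (35.8) and Slc38a10 (27.5), each apart from its neighbours in the order. Slc6a8 (22.5) and Slc7a5 (18.03), whose samples overlapped, came next. Slc7a5 ranged from 5.48 to 30.7 FPKM in IANX and so spanned the Slc38a10 samples (25.1 to 29.9 FPKM). Slc36a2 moved from place 3 to place 13, Slc38a1 from 7 to 12 and Slc6a13 from 10 to 34, while Slc38a3 took place 6 in IANX at 11.4 FPKM through IANX 1 and IANX 3.

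**Figure D4:**
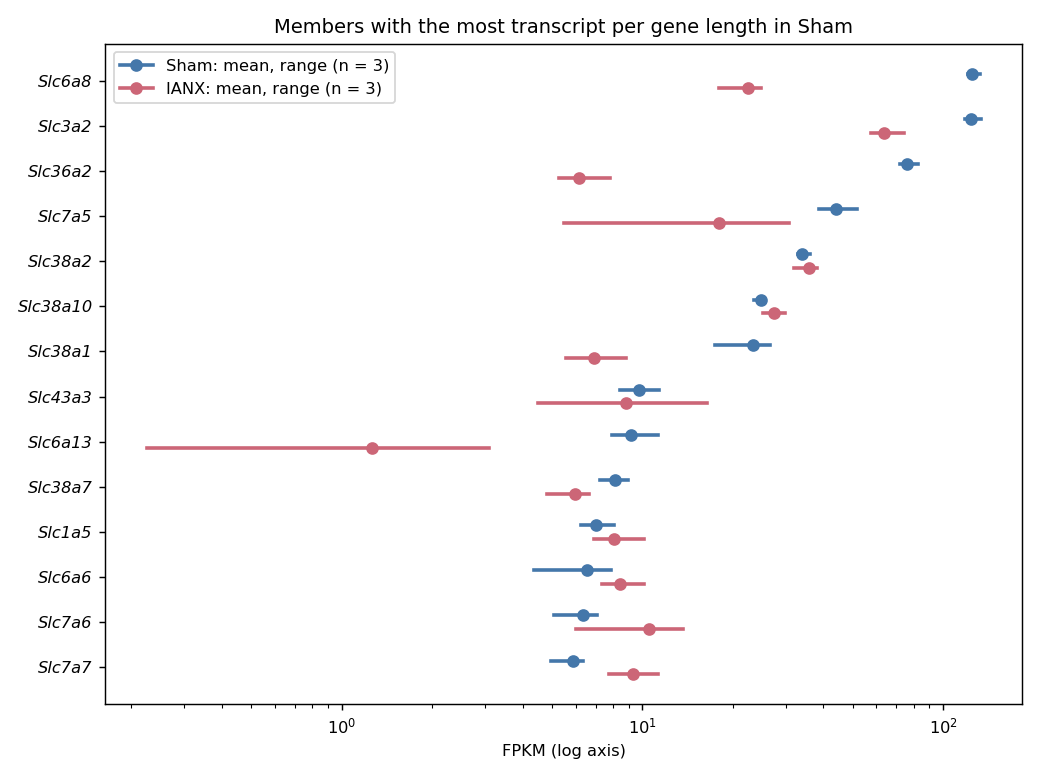
Deposited FPKM (x axis, log scale) of 14 members with the most transcript per gene length in Sham, as the mean (point) and range (line) of 3 samples per group. Slc6a8, Slc3a2 and Slc36a2 lie at 76.0 to 125 FPKM in Sham and are far lower in IANX, whereas Slc38a2 and Slc38a10 keep close levels in both groups.

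Genes of the pathways that these carriers serve were read beside them from gene lists, in the same edgeR fit and against the same 17.8% higher and 16.6% lower over all genes. Of 7 tested genes of creatine and taurine synthesis, 3 fell and none rose, with 1 higher at an unadjusted p under 0.05. Gatm, which makes the creatine precursor guanidinoacetate, was counted at 724, 639 and 706 CPM in Sham and 39.5, 150.3 and 63.8 CPM in IANX (log2 fold change -3.03, edgeR adjusted p = 0.00426). Transcripts of this enzyme of the precursor step and of the creatine carrier Slc6a8 were both far lower. The markers of myelinating Schwann cells (173928 to 228312 CPM in Sham, 4101 to 15212 CPM in IANX) and of Schwann cell identity (7198 to 7483 CPM, then 563 to 2471 CPM) were lower in sum beside both genes, and their part was not tested. In taurine synthesis, Ado fell by 2.02 (adjusted p = 0.00108) and Csad by 0.61 (adjusted p = 0.0145) on the log2 scale. The Csad call was lost without Sham 3 (adjusted p = 0.0746), IANX 1 (0.0514) or IANX 3 (0.0581).

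Of 8 tested genes of serine and one-carbon synthesis, 2 rose and 2 fell. Psat1, the transaminase of serine synthesis, was counted at 117, 113 and 109 CPM in Sham and 16.5, 19.5 and 17.1 CPM in IANX (log2 fold change -2.68, edgeR adjusted p = 0.000217). Phgdh, the first enzyme of that route, fell by 0.75 (adjusted p = 0.0383) and mitochondrial Aldh1l2 rose about 2-fold (log2 fold change 0.998, adjusted p = 0.0150), whereas Shmt1, which also rose, had a mean under 5 CPM over the 6 samples (log2 fold change 1.64). The Phgdh call was lost without Sham 1, 2 or 3 (adjusted p = 0.0957, 0.131 and 0.0737) or IANX 3 (0.0776), that of Aldh1l2 without Sham 2 (0.0602), Sham 3 (0.0732) or IANX 3 (0.0503), and that of Shmt1 without Sham 1, 2 or 3 (0.0686, 0.0976 and 0.0805), IANX 1 (0.0747) or IANX 3 (0.0869).

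In glutamate and GABA metabolism, 1 of 9 tested genes rose and 2 fell. Glutaminase Gls2 was counted at 10.1, 9.83 and 10.6 CPM in Sham and 3.96, 3.76 and 4.09 CPM in IANX (log2 fold change -1.37, edgeR adjusted p = 0.00500). Glutamine synthetase Glul fell by 0.76 (adjusted p = 0.0436), a call lost without any 1 of Sham 1, 2 or 3 (adjusted p = 0.127, 0.0943 and 0.122), IANX 1 (0.117) or IANX 3 (0.134), and the GABA-synthesising Gad1, with a mean under 5 CPM, rose by 2.10, with 1.38 to 2.33 CPM in Sham and 14.5, 6.59 and 2.02 CPM in IANX 1, 2 and 3, so that the groups overlapped. The Gad1 call was lost without Sham 1, 2 or 3 (adjusted p = 0.146, 0.120 and 0.143) or IANX 1 (0.151, log2 fold change 1.26). Among the receptors for glutamate, GABA and glycine, 3 of 13 tested rose and 3 fell. The metabotropic GABA receptor subunit Gabbr1 was counted at 579, 608 and 562 CPM in Sham and 122, 98.4 and 118 CPM in IANX (log2 fold change -2.37, adjusted p = 0.000385), and the kainate receptor subunit Grik5 fell by 1.23 (adjusted p = 0.00842). The GABA receptor subunit Gabra3, with a mean under 5 CPM, fell by 3.05, a call lost without Sham 1 (adjusted p = 0.0505) or Sham 3 (0.0554). The 3 that rose all had means under 5 CPM. The GABA receptor subunit Gabra4 had 0 CPM in each Sham sample and 5.72, 1.36 and 4.39 CPM in IANX (adjusted p = 0.00601), a call that every omission kept. The kainate receptor subunit Grik4 rose by 3.11 and the glycine receptor subunit Glrb by 1.92 on the log2 scale, and both calls were lost without Sham 1, 2 or 3 (Grik4 0.0944, 0.0808 and 0.0962, Glrb 0.0953, 0.0634 and 0.102), IANX 1 (0.0539 and 0.0851) or IANX 3 (0.0718 and 0.0619).

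**Figure D5:**
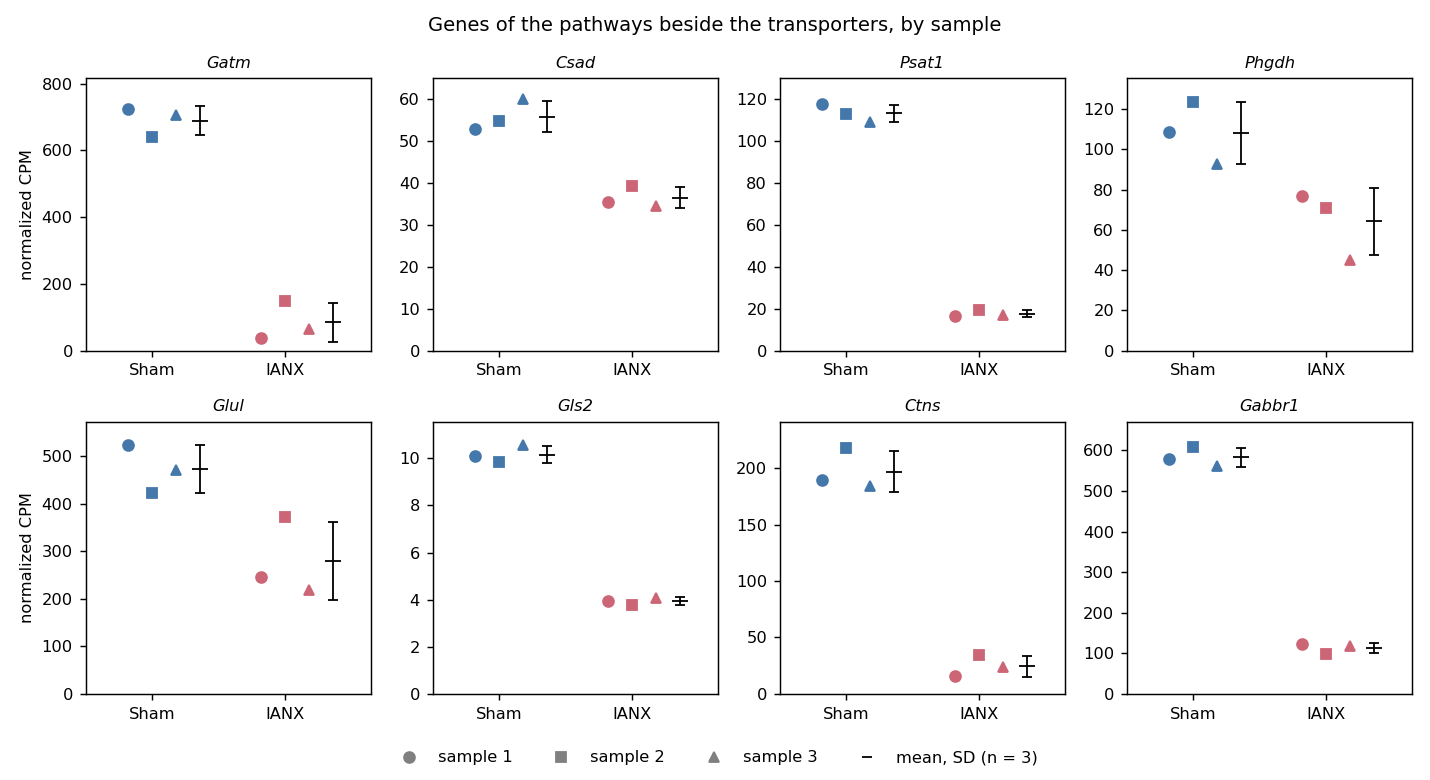
Normalized CPM (y axis, starting at 0) by sample for 8 genes of the pathways beside the transporters, with the mean and SD of 3 samples per group. All were picked from the pathway genes called lower, and genes called higher are not shown. The Sham samples of each gene lie above its IANX samples, by the widest margins for Gatm, Psat1, Ctns and Gabbr1.

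Of 10 tested amino acid transporters outside the families followed here, none rose and 2 fell, against 0 and 4 at an unadjusted p under 0.05. The lysosomal cystine exporter Ctns was counted at 189, 218 and 184 CPM in Sham and 15.6, 34.1 and 24.1 CPM in IANX (log2 fold change -3.00, edgeR adjusted p = 0.000771), and the mitochondrial glycine carrier Slc25a38 fell by 1.21 (adjusted p = 0.00725). In the glutathione list, to which Slc7a11 supplies cystine, 1 of 10 tested genes fell, Gsr by 0.47 (adjusted p = 0.0491), and none rose, the same counts as at an unadjusted p under 0.05. The Gsr call was lost without any single sample other than IANX 2, with adjusted p values of 0.0560, 0.127 and 0.128 without Sham 1, 2 or 3 and 0.127 and 0.0873 without IANX 1 or IANX 3. Only 1 vesicular transporter passed the filter and it was not called.

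The transcriptional response to amino acid shortage, which can raise Slc7a11, Slc3a2, Slc7a5 and Slc38a2, went both ways, with 4 of 16 tested genes higher and 4 lower. Atf5 was counted at 274, 298 and 270.3 CPM in Sham and 69.0, 99.9 and 64.2 CPM in IANX (log2 fold change -1.85, edgeR adjusted p = 0.00123), and Ppp1r15a fell by 1.17 (adjusted p = 0.0118). Atf3 rose, from 17.1, 21.8 and 20.6 CPM in Sham to 56.8, 349 and 62.8 CPM in IANX, highest in IANX 2 (log2 fold change 2.98, adjusted p = 0.0183), and Vldlr rose by 1.29 (adjusted p = 0.0297). Stc2, a secreted glycoprotein gene with a mean under 5 CPM, rose from 0.552, 0.4997 and 0.591 CPM in Sham to 8.72, 3.38 and 2.13 CPM in IANX (log2 fold change 3.09, adjusted p = 0.00934), a call lost in 1 of the 6 omissions, without Sham 2 (0.0524). The transcription factor Cebpb rose by 0.80 (adjusted p = 0.00976, 0.0583 without Sham 3). Atf4, the main factor of the response, fell by 0.60 (adjusted p = 0.0259) and Ddit3 by 0.74 (adjusted p = 0.0172). The Atf4 call was kept in 1 of the 6 omissions, without IANX 2, and that of Ddit3 in 2, without Sham 1 or IANX 2, and with library sizes only neither passed (log2 fold change -0.15 and -0.29). Other calls were lost in some omissions: Ppp1r15a without Sham 2 (adjusted p = 0.0561) or Sham 3 (0.0504), Atf3 without Sham 1, 2 or 3 (0.0760, 0.0841 and 0.0751), and Vldlr without Sham 1, 2 or 3 (0.0627, 0.120 and 0.0968), IANX 1 (0.0610) or IANX 3 (0.0515).

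Of 17 tested genes of amino acid sensing by mTORC1, with which Slc38a9 and the lysosomal carriers work, 1 fell and none rose, against 4 and 2 at an unadjusted p under 0.05. Lamtor1, a lysosomal anchor of the pathway, fell by 0.60 (edgeR adjusted p = 0.0487), a call lost without Sham 1, 2 or 3 (adjusted p = 0.115, 0.146 and 0.0972), IANX 1 (0.126) or IANX 3 (0.144).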

How the data were processed

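Poly-A RNA from the IAN of 3 Sham and 3 IANX rats (replicate samples from separate rats per the study's methods) was sequenced as paired-end reads. The authors aligned reads to rn6 with HISAT2 (2.0.5), added genes with StringTie (1.3.3b) and deposited raw counts per gene from featureCounts (1.5.0-p3). Annotation release, strand setting and treatment of multi-mapped reads are not given in the sources used here, so overlapping antisense genes cannot be told apart. The authors also deposited FPKM, used for levels per gene length. These values follow a normalized library size and not the total count, so limma on FPKM keeps a scaling between samples. The authors' own DESeq2 (1.20.0) comparison was deposited as log2 fold changes, p-values and adjusted p-values, with a normalized signal (mean count) per group. None of that comparison was used.

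Counts were tested with edgeR 4.0.16 in R 4.3.3 (filterByExpr, TMM factors, glmQLFit and glmQLFTest, condition only, two-sided). Their p-values were adjusted by Benjamini-Hochberg over the 15374 genes tested, and calls made under 0.05. CPM use TMM-scaled library sizes, and precision rests on 3 samples per group. An exact permutation test of 3 against 3 samples cannot give a p under 0.1. Members and lists were chosen with earlier results of these data known. Sample values were given for called members, the member with the highest mean CPM of each class and members whose groups did not overlap (mean of at least 5 CPM). Called members under 5 CPM were to be named by fold change, and Slc38a11 was also given by sample. Slc6a6, which the rule did not select, was given by sample too. Of each pathway list, up to 4 called genes with the largest fold changes and at least 5 CPM were named, and other called genes were added after their values were seen. Some 17 listed symbols (8 of pathway and 9 of marker lists) matched no gene. Alternatives were DESeq2 1.42.0, RLE factors, library sizes only, no filter, Ensembl genes only, replicate number as a block, omission of each sample, IANX 2 alone, and limma 3.58.1 on log2(FPKM + 1) with a filter of 1 FPKM in 3 samples or none, or on log2(FPKM + 0.1). Of the tested members, 1 that was not called is counted but not reported by itself here. Promoters came from RefSeq (GRCr8), whose coordinates were not joined with the rn6 coordinates of the files.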

Additional observations from a re-analysis of the deposited data

How the results depend on the processing

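Slc36a2, Slc6a8 and Slc38a1 stayed lower and past the threshold in all 16 alternatives. The 4 members called higher became 12 with library sizes only and 1 with the replicate block. They became 1 with limma on log2(FPKM + 1), 0 with limma without a filter and 1 with limma on log2(FPKM + 0.1). When 1 sample was left out they became 0 to 6. Of all genes, 14.1% were higher and 15% lower with the block. In the limma settings, in the order given, 14.7%, 7.02% and 14.4% of all genes were higher, with 33, 58 and 33 members tested. Under both limma settings with the FPKM filter, Slc7a11, Slc38a3 and Slc38a11 were not tested, and Slc7a7, which was, passed. The 6 called lower became 4 to 10 when 1 sample was left out (10 without IANX 2), 7 with the block and 4 with library sizes only, where the Slc7a2 call was among those lost. Library sizes only moved the median log2 fold change of all genes from 0.08 to 0.53, with 38.5% of genes higher and 9.55% lower. DESeq2 called 6 members higher and 9 lower of 50 tested, beside 17.8% and 16.5% of all genes. Slc6a3 and Slc6a17 were among the added higher calls, and Slc7a5 and Slc6a9 among the added lower calls. Where limma without a filter gave 0 higher members, 2 had an unadjusted p under 0.05, and where omission of a Sham sample gave 0 by edgeR, 2 to 5 had.

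Whether sample numbers pair the samples was not settled. Deviations of same-numbered samples correlated at 0.09, -0.01 and 0.08, and those of different numbers at -0.13 to 0.05. Values this weak neither show nor exclude pairing. The block moved the calls over all genes from 2734 higher and 2550 lower to 2175 and 2299. Signs turned with IANX 2 alone for Slc6a17 (-0.81), Slc38a2 (-0.068), Slc38a3 (-1.43) and Slc43a3 (0.77, adjusted p = 0.0447 by edgeR), with library sizes only for Slc38a7 (0.055) and Slc43a3 (0.32), and for Slc43a3 also without IANX replicate 1 (0.20) or IANX replicate 3 (0.13), and over the omissions of 1 sample its log2 fold change ran from -0.92 (without IANX replicate 2) to 0.20. The causes were not tested, except that fewer samples were fitted where samples were left out. With IANX 2 alone the spread comes from the Sham samples only. Without the filter on low counts Slc7a7 was lost and Slc6a3 gained among the higher members. The 18 members below the filter had at most 63 counts over the 6 samples.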
